A study of Mus musculus with 6 samples.

Results

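In 1 of 6 mouse liver arrays, the library labelled Control 3, a set of genes for pancreatic digestive enzymes and other acinar secretions stood far above its level in every other array. The genes were chosen by their measured values. A member is a probe set, the array's unit of summary for a transcript, whose annotation names 1 gene only and whose log2 value in Control 3 exceeded the highest value of the other 5 arrays by more than 1. This excess was met by 36 of 14996 such probe sets, or 0.24%, and each of the 36 named a different gene. Because the values of Control 3 picked the members, their height in that array is a description and carries no test.

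The arrays came from whole liver of mice fed the high fat diet Teklad TD06415 for 8 weeks. The 3 control mice were littermates labelled wild type, glucose intolerant, with marked steatosis, and the 3 DeltaHepKlf6 mice carried a knockdown of Klf6, a zinc finger transcription factor, restricted to hepatocytes, with improved glucose tolerance and less steatosis. Strain, sex, age and the promoter that drives the knockdown were not given in the sources used here. The probe set of Klf6 read 6.80, 6.09 and 5.88 in Control 1 to 3 and 5.93, 5.43 and 5.45 in DeltaHepKlf6 1 to 3, so the groups overlapped by 1 pair of arrays, Control 3 and DeltaHepKlf6 1; whether it lies in the deleted part was not given in the sources used here. Each mouse gave 1 array, and in whole tissue fewer cells of a type and less RNA per cell cannot be told apart.

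Acinar cells form the bulk of the exocrine pancreas. They make digestive enzymes, many as inactive zymogens, pack them in granules and release them into the pancreatic duct when cholecystokinin or acetylcholine acts on the cell. Their enzyme genes are driven by PTF1, a complex of the helix-loop-helix factor Ptf1a, a common helix-loop-helix partner such as Tcf3, and Rbpjl or Rbpj, with support from Nr5a2, Gata4, Gata6, Bhlha15 and Xbp1. Hepatocytes secrete plasma proteins, not digestive zymogens, and are known to share several of those supporting factors.

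Of the 36 members, 14 were on a list of digestive enzymes and their cofactors, 10 on a list of other secreted acinar proteins and 1 on a list of acinar secretory machinery. None came from the list of acinar transcription factors. The other 11 were 6 chemosensory receptor genes and 5 genes on no list. Of 35 genes on the digestive list, 16 had a one-gene probe set, 8 were read only by probe sets that name several genes and 11 had none here, and the secreted list had 11 of 17. The name exocrine pancreas therefore rests on 25 of the members. The remaining 11 are only absent from these lists, and whether any of them belongs to the acinar signal was not tested.

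PTF1 is known to bind a helix-loop-helix element, CANNTG, beside the element TTTCCC. Both strands of the RefSeq promoters (GRCm38.p6, 250 bases before to 50 after each gene's start) were searched for CANNTG followed after 1 to 20 bases by TTTCCC. The pair was found in 4 of the 13 digestive enzyme members with a promoter in the table, Cela1, Ctrb1, Cpa1 and Cel, and in 286 of 11869 genes with a promoter and a one-gene probe set, which is 2.41%. Over all 20 pancreas-list members with a promoter the count was also 4, and over 10 members on no pancreas list it was 0. CANNTG alone occurred in 17 of those 20 members and in 70.9% of all genes, TTTCCC alone in 6 of 20 and in 29.5%, and TATAAA in 8 of 20 and in 13.2%. AAGGTCA, the element read by Nr5a2 and other nuclear receptors, occurred in 2 of 20 and in 4.19%. Such a match is a description of letters and not of binding.

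The 4 promoters that hold the pair are shown in the gene's direction with both elements in capitals, so that their spacing can be read. In Cela1 and Ctrb1 the elements lie 4 bases apart on the gene's strand. In Cpa1 and Cel they lie 15 bases apart on the opposite strand, where TTTCCC reads as GGGAAA. The nearest base of the pair lies 94, 190 and 60 bases before the gene's start in Cela1, Ctrb1 and Cel. In Cpa1 the CANNTG match lies after the start. The promoter of Cpb1, the member with the largest excess, follows as one without TTTCCC, with its CANNTG matches in capitals. The regions are chr15:100687871-100688170 on the minus strand for Cela1, chr8:111690961-111691260 on the minus strand for Ctrb1, chr6:30638968-30639267 on the plus strand for Cpa1, chr2:28563354-28563653 on the minus strand for Cel and chr3:20275684-20275983 on the minus strand for Cpb1.
Cela1: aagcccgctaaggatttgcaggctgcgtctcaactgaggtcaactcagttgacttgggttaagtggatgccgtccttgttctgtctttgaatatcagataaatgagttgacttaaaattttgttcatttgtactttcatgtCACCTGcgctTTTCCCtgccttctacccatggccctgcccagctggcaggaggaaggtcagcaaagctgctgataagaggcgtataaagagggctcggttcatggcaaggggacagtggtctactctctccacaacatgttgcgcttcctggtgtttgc
Ctrb1: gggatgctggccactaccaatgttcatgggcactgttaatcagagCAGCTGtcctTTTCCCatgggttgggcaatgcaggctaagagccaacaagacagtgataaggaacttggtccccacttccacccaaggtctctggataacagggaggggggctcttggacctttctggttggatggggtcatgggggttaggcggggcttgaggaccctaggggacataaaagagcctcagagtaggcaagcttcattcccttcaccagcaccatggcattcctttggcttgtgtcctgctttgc
Cpa1: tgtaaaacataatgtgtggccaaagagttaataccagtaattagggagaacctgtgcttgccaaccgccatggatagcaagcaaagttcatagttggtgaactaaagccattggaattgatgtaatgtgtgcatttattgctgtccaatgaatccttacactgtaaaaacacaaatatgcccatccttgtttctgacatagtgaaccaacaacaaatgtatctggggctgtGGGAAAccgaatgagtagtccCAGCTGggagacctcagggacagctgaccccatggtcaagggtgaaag
Cel: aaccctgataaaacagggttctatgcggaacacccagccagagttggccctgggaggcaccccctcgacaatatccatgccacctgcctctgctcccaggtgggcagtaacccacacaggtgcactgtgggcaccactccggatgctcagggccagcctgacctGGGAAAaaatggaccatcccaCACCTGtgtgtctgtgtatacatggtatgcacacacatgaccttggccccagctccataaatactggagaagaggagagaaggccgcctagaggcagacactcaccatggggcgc
Cpb1: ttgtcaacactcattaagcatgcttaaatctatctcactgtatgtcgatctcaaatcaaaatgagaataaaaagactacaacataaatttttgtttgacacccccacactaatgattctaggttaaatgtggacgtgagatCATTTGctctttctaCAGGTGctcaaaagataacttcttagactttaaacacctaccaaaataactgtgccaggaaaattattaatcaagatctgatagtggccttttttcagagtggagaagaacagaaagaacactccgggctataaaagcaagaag

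The digestive enzymes gave the tallest signals of the set. Cpb1, pancreatic carboxypeptidase B, read 11.85 in Control 3, against 4.03 in Control 1, 3.61 in Control 2, and 4.18, 4.21 and 3.55 in DeltaHepKlf6 1, 2 and 3, all on the log2 scale. Its excess over the highest other array was 7.64, a 199-fold higher signal. The 5 other arrays lay within 0.66 of each other, so only Control 3 stood apart.

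The trypsinogen gene 2210010C04Rik read 11.20 in Control 3, against 3.61 and 3.73 in the other controls and 3.77, 3.81 and 3.81 in DeltaHepKlf6 1 to 3. Ctrb1, chymotrypsinogen B, read 12.45 in Control 3, against 5.32 and 5.41 in the other controls and 5.68, 5.71 and 5.45 in DeltaHepKlf6. In both genes the 5 lower arrays formed a narrow band, with a range of 0.20 for 2210010C04Rik and of 0.39 for Ctrb1. Cpa1, carboxypeptidase A, read 11.26 in Control 3, against 4.58 and 4.40 in the other controls and 4.64, 4.46 and 4.46 in DeltaHepKlf6. The excess of these 3 protease genes was 7.39, 6.74 and 6.62, or 168-fold, 107-fold and 98.4-fold.

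Lipid-digesting proteins behaved the same way in the 6 arrays. Pnliprp1, a relative of pancreatic lipase, read 11.34 in Control 3, against 4.72, 4.57, 4.56, 4.82 and 4.47 in Control 1, Control 2 and DeltaHepKlf6 1 to 3. Cel, the bile salt-stimulated lipase, read 10.68 in Control 3, against 4.16, 4.31, 4.49, 4.72 and 4.27 in the same order. Clps, colipase, which anchors pancreatic lipase to fat droplets in the presence of bile salts, read 12.05 in Control 3 and 6.78, 6.62, 6.58, 6.81 and 6.39 elsewhere. Control 3 was alone at the top in all 3, by 6.52, 5.96 and 5.24. The lipase relative Pnliprp2 had an excess of 5.36, and the secreted phospholipase Pla2g1b one of 5.09, with 9.81 in Control 3 and at most 4.72 elsewhere.

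Rnase1, pancreatic ribonuclease, read 10.63 in Control 3, against 4.40, 4.19, 3.94, 4.18 and 4.07 in the other arrays, an excess of 6.23. The chymotrypsin-like protease gene Ctrl read 12.01 in Control 3 and between 5.27 and 6.12 elsewhere, and Cela1, an elastase, 12.15 in Control 3 and between 6.01 and 6.64 elsewhere. The last 2 members on the list, the trypsinogen gene Prss2 and the elastase gene Cela3b, both named after their values were seen, had an excess of 4.41 and 4.36. Across the 14 genes the excess ran from 4.36 to 7.64 with a median of 5.92, and the mean of the 14 was 10.96 in Control 3 and 4.79, 4.67, 4.85, 4.87 and 4.76 in Control 1, Control 2 and DeltaHepKlf6 1 to 3. Trypsinogens, elastases and the Reg genes have close copies in the mouse, so a probe set of one copy may also read another.

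**Figure D1:**
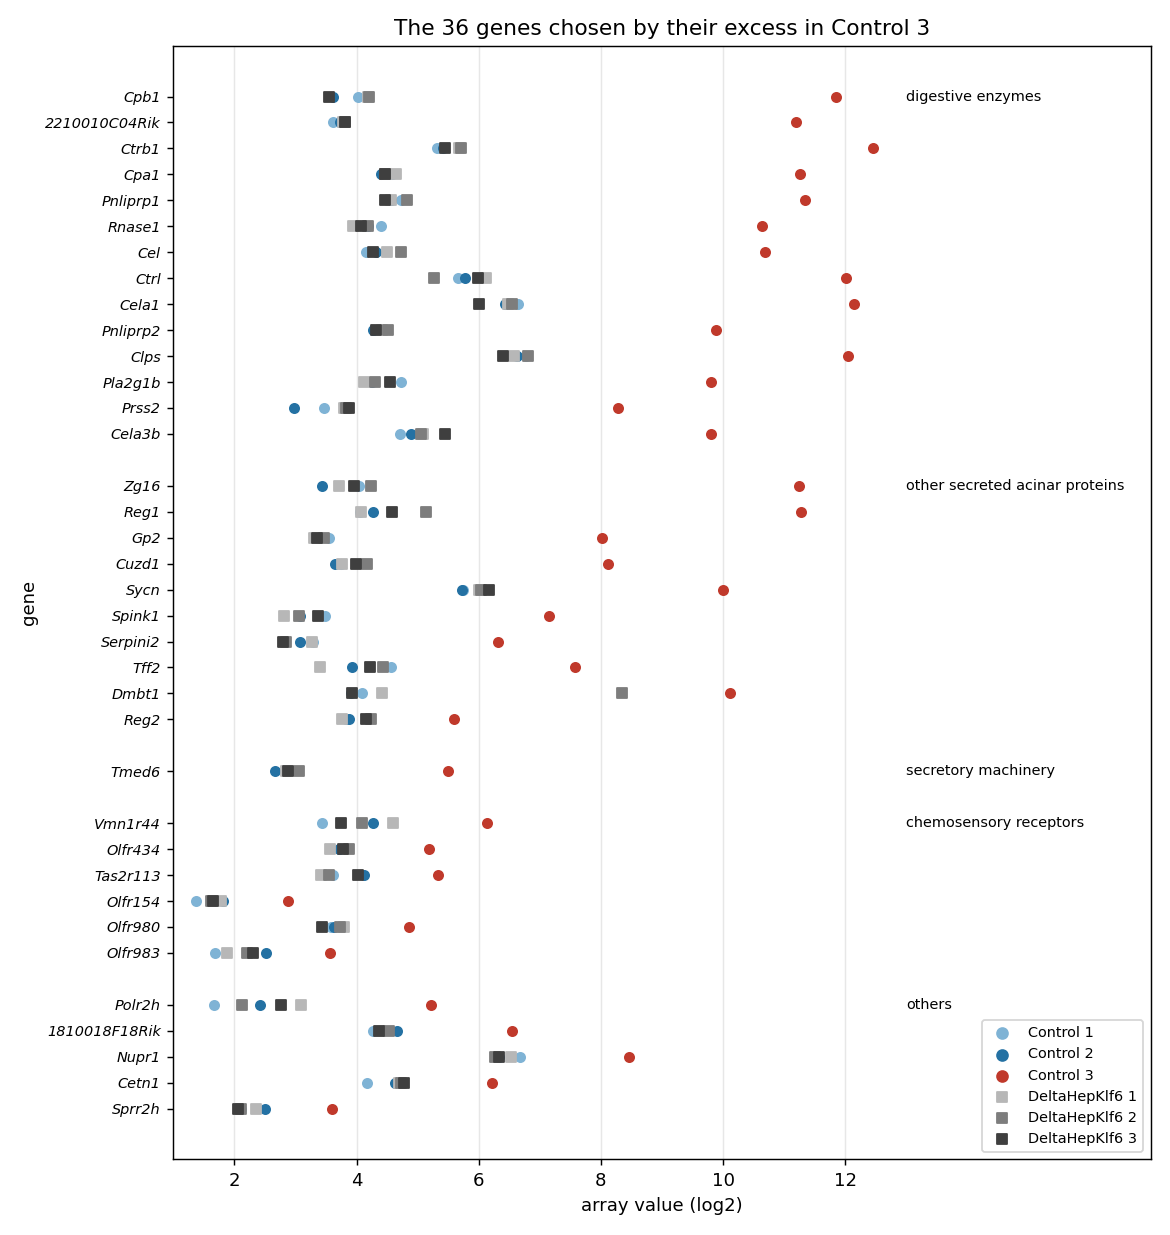
Log2 array values of the 36 members in the 6 arrays, grouped by class, with circles for Control and squares for DeltaHepKlf6. Control 3, in red, lies to the right of the other 5 arrays in every row because that is how the rows were picked, and for the 14 digestive enzymes the distance is 4.36 to 7.64.

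Secreted acinar proteins that are not enzymes spread more widely. Zg16, a lectin of zymogen granules that goblet cells also make, read 11.24 in Control 3, against 4.04, 3.43, 3.71, 4.23 and 3.96 in Control 1, Control 2 and DeltaHepKlf6 1 to 3. Reg1, a lectin-like protein of pancreatic juice, read 11.28 in Control 3, against 4.06, 4.26, 4.07, 5.14 and 4.58. The excess was 7.01 for Zg16 and 6.14 for Reg1, and among the other arrays DeltaHepKlf6 2 was the highest for both.

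Gp2, the main membrane glycoprotein of zymogen granules, had an excess of 4.47, Cuzd1, another granule membrane protein, one of 3.94, and Sycn, syncollin, a granule protein of acinar cells, one of 3.83. Spink1, the trypsin inhibitor packed with the zymogens, read 7.15 in Control 3 and 2.81 to 3.49 elsewhere. Serpini2, a serine protease inhibitor of the pancreas, and Tff2, a trefoil peptide better known from the stomach, had an excess of 3.02 and 3.01. At the low end stood Reg2, with 5.59 in Control 3 and 3.76 to 4.24 elsewhere.

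Dmbt1, a scavenger receptor-rich glycoprotein of mucosal and ductal secretions, was the one secreted member with a second high array. It read 10.11 in Control 3, 8.34 in DeltaHepKlf6 2, and 4.09, 3.90, 4.42 and 3.93 in Control 1, Control 2, DeltaHepKlf6 1 and DeltaHepKlf6 3. Without DeltaHepKlf6 2 its excess would be 5.69 in place of 1.77. Over the 10 measured genes of the duct list, which bile ducts share, the mean was 6.25 in DeltaHepKlf6 2, 5.84 in Control 3, and 5.73 to 6.07 in the others, and 0 of the 10 had an excess over 1 in Control 3. Its part in the value of Dmbt1 was not tested.

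Most of the list genes of the secretory apparatus did not share the step. Of 18 measured genes of acinar secretory machinery, Tmed6, of the family that carries cargo between the endoplasmic reticulum and the Golgi, was the only member, with 5.50 in Control 3 and 2.67 to 3.05 elsewhere. Erp27, an endoplasmic reticulum protein, fell just short with an excess of 0.95, from 7.44 in Control 3 against 6.07, 6.33, 6.18, 6.43 and 6.49 in Control 1, Control 2 and DeltaHepKlf6 1 to 3. Tmed11, with 2.95 against at most 2.06, and Cckar, the cholecystokinin receptor, with 5.56 against at most 4.84, were also highest in Control 3, by 0.89 and 0.72. Chrm3, the acetylcholine receptor of acinar cells, was above the next array by 0.15 and Nucb2 by 0.05.

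In the other 12 of the 18 genes Control 3 was not the highest array. Vamp8, a fusion protein of zymogen granules that many cells use, read 11.05 in Control 3 and 10.54 to 11.24 elsewhere. Among 36 measured genes of endoplasmic reticulum folding and translocation, which every secreting cell needs, 0 were highest in Control 3, and their mean was 9.42 there against 9.15 to 9.73 in the other arrays. Hspa5, the chaperone BiP, read 12.06 in Control 3 and up to 12.39 elsewhere. A small admixture could be missed in both lists. Several machinery genes, such as Tmed11 and Chrm3, were dim in every array, and the endoplasmic reticulum genes were already bright in liver.

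The 9 acinar transcription factors gave 0 members. Ptf1a read 3.78 in Control 3, against 3.53, 3.49, 3.46, 3.15 and 3.46 in Control 1, Control 2 and DeltaHepKlf6 1 to 3. Bhlha15, the factor also called Mist1 that organises the secretory cell, read 5.08, against 4.68, 4.69, 4.54, 4.79 and 4.63. Both were highest in Control 3, by 0.25 and 0.29, which is far below the excess of the enzyme genes. Rbpjl, the acinar-specific partner of Ptf1a, read 5.04 in Control 3 and 5.0 to 5.29 in the other arrays, inside their range. In every array Ptf1a, Bhlha15 and Rbpjl lay below the 95th percentile of the olfactory and vomeronasal probe sets, the guide to dim signal given below. A small rise in these dim probe sets could therefore be missed.

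The factors that liver also uses lay inside the range of the other arrays or below it. Nr5a2, a nuclear receptor of bile acid and acinar genes, read 9.75 in Control 3 and 9.49 to 9.78 elsewhere. The value of Gata4 in Control 3 was 7.17 and that of Gata6 6.91, against at most 7.25 and 7.03 elsewhere. Xbp1, a factor of the secretory stress response, read 8.39 in Control 3 against 9.40 in Control 1 and 8.19 to 8.75 in the rest. Tcf3 and Rbpj were 0.32 and 0.78 below the highest other array.

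A gene of the digestive list that liver makes in quantity showed no step either. Amy1, an amylase of salivary gland and liver, read 12.40 in Control 3 and 12.59 to 12.69 in the 5 other arrays, so Control 3 was the lowest. Dnase1, a secreted nuclease, read 4.67 against 4.63 to 4.90. Reg3g, the one measured gene of the secreted list that was no member, read 2.55 against 2.52 to 2.93.

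Listed genes of other cell types that lie near the liver or in the pancreas did not share the excess of the set. Of 91 measured genes on 9 lists for islet, duct, stomach, intestine, salivary gland, mesothelium, fat, lymphoid tissue and hepatocytes, 0 had an excess over 1. A small admixture could be missed, because several of these genes were dim in every array and others were already bright in liver. Ins2, an insulin gene of islet beta cells, came closest with an excess of 0.59, from 5.11 in Control 3 against 3.82, 4.16, 4.24, 4.17 and 4.52 in Control 1, Control 2 and DeltaHepKlf6 1 to 3. The glucagon gene Gcg read 3.71 in Control 3 and 3.52 to 4.03 elsewhere, and Sst, somatostatin, 5.92 and 5.48 to 6.05, both inside the range of the others. Over the 22 islet genes the median excess was -0.23, close to the -0.30 of all one-gene probe sets.

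Among stomach genes Gkn1 reached an excess of 0.13, the highest of the 9 measured, and no intestinal gene of 11 was highest in Control 3. Tff3, a goblet cell trefoil peptide, read 6.83 in Control 3 and 8.20 to 9.02 elsewhere. Albumin, Alb, read 12.85 in Control 3 against a highest value of 13.04, and the mean of the 9 hepatocyte genes was 12.44 there, inside the 12.42 to 12.52 of the other arrays. The source of the acinar signal was not tested.

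**Figure D2:**
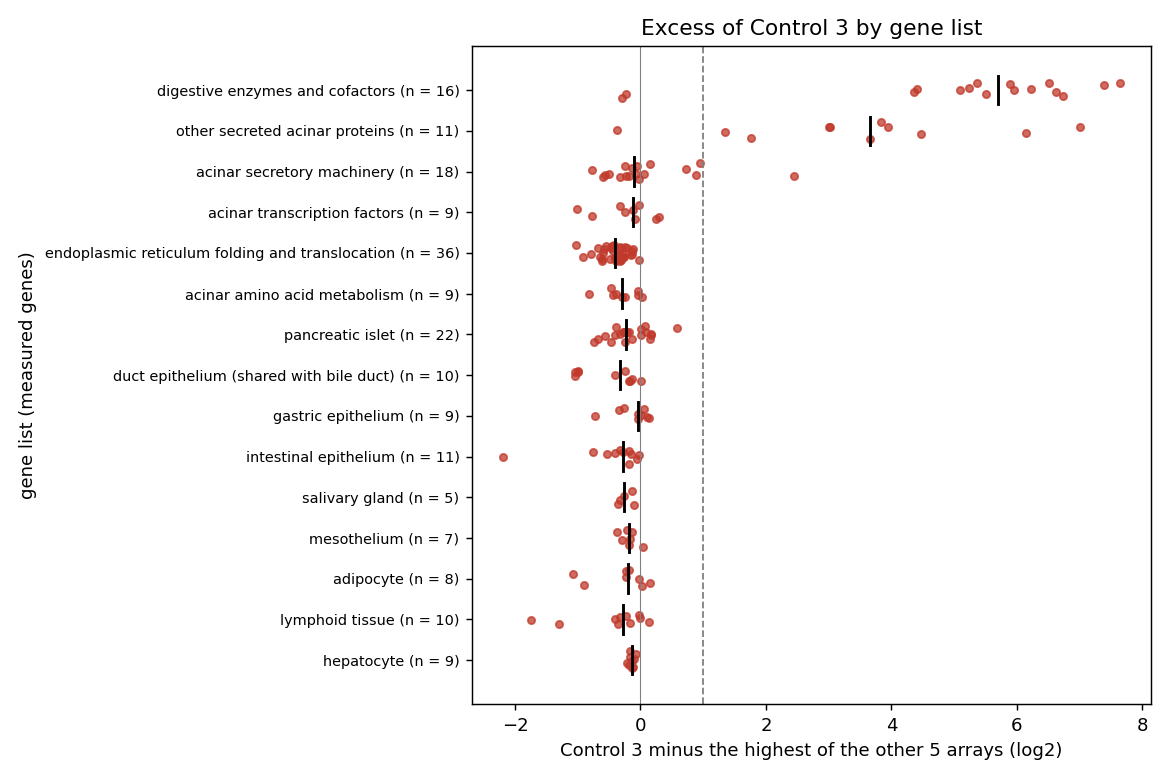
Control 3 minus the highest of the other 5 arrays (log2) for each measured gene of 15 lists, with a black bar at the median of the list and a dashed line at the threshold of 1. The first pair of lists lie mostly right of the line, with medians of 5.70 and 3.66, and the lists of other cell types lie left of it.

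The 11 members outside the pancreas lists were of another size. Their largest excess was that of Polr2h, an RNA polymerase subunit whose probe set was dim, with 5.22 in Control 3 and 1.66 to 3.09 elsewhere. The lncRNA 1810018F18Rik, which directly precedes Pnliprp1 in the RefSeq gene order, as Pnliprp1 precedes Pnliprp2, read 6.54 in Control 3 and 4.26 to 4.66 elsewhere. Nupr1, a small stress-induced nuclear protein first described in the inflamed pancreas, read 8.46 in Control 3 against 6.68, 6.33, 6.52, 6.27 and 6.33 in the other arrays. Cetn1, a centrin, and Sprr2h, an epithelial envelope protein, had an excess of 1.44 and 1.09.

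The 6 chemosensory genes were Vmn1r44, Olfr434, Tas2r113, Olfr154, Olfr980 and Olfr983, receptors for scents and tastes that liver is not known to use, with an excess from 1.04 to 1.55. Similar numbers of such genes passed the same rule in other arrays, 1 to 7 per array. As a guide to dim signal, the 95th percentile of 800 olfactory and vomeronasal probe sets was 5.37 to 5.52 in the 6 arrays. All 25 pancreas-list members lay above that level in Control 3, and 18 of the 25 lay below it in every other array. Of the other 11 members, 7 were under it in Control 3 too.

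At the threshold, the 3 members just inside were Olfr154, Olfr980 and Olfr983 with 1.06, 1.05 and 1.04. The 3 probe sets just outside were Olfr311 and Olfr872, both at 0.97, and Erp27.

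Counting the same excess in each array in turn gave 27 one-gene probe sets in Control 1, 3 in Control 2, and 14, 26 and 4 in DeltaHepKlf6 1, 2 and 3, so the 36 of Control 3 is not far above the largest of these. The size of the excess differed. In Control 3, 24 probe sets exceeded the others by more than 2 and 17 by more than 4, whereas in the other arrays at most 2 passed the first mark and 0 the second. All 17 were on the digestive or secreted lists, and in the other 5 arrays 0 of the genes that passed the rule were on any of the 4 acinar lists. The lists were chosen with earlier results of these data known, so these list counts are a description and not a test. In the downward direction Control 3 lay more than 1 below every other array in 11 probe sets, against 4 to 21 in the others.

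**Figure D3:**
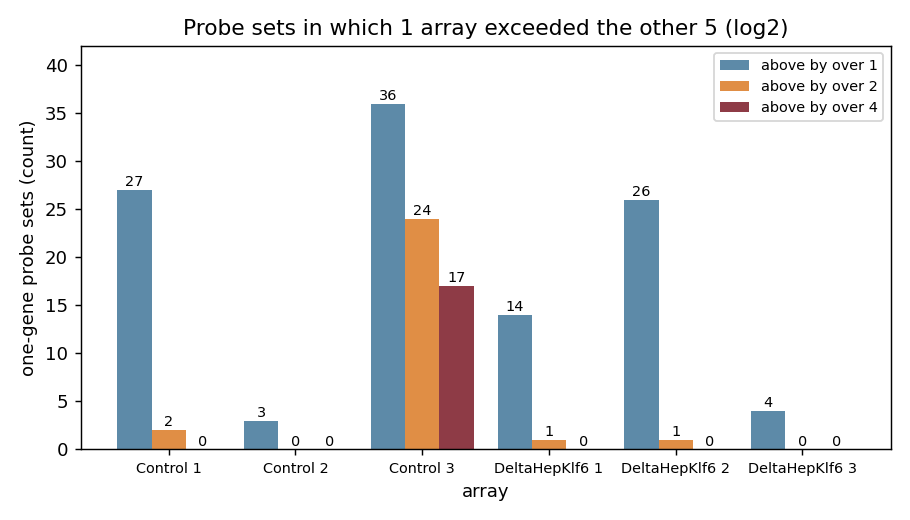
Number of one-gene probe sets in which the named array exceeded the highest of the other 5 by more than 1, 2 or 4 on the log2 scale. Counts above 2 were 24 in Control 3 and 0 to 2 in the other arrays, and counts above 4 were 17 and 0.

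Since Control 3 chose the members, a comparison of DeltaHepKlf6 with all 3 controls contains the rule. In it all 36 members were lower in DeltaHepKlf6, by a median of -1.27 on the log2 scale. The mean of Cpb1 over the 3 controls was 6.50 ± 4.64 and that over the 3 DeltaHepKlf6 livers 3.98 ± 0.37 (SD, n = 3), and the -2.52 between them rests on 1 array. Of 44 one-gene probe sets lower by more than 1 in DeltaHepKlf6, which is 0.293% of them, 22 were members, and of the 20 with the lowest difference 16 were members. Limma called 0 of the 36, with a smallest unadjusted p of 0.173 and a smallest adjusted p of 0.998.

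The 5 arrays that the rule compared Control 3 with allow a test that leaves that array out. The rule also used the highest value of these 5 arrays, so their values are not free of the choice of members. Between DeltaHepKlf6 and Control 1 and 2 the median difference of the 36 members was 0.08. It was -0.08 over the one-gene probe sets and -0.06 over all 23332 probe sets. Limma called 0 members and 0 of all probe sets, a background of 0%, with a smallest adjusted p of 0.991. At an unadjusted p under 0.05 limma counted 1 of the 36 members, against 246 of 14996 one-gene probe sets and 3.37% of all probe sets. Of 64 one-gene probe sets lower by more than 1 in this comparison, 0.427% of them, 0 were members.

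That 1 member was Prss2. It read 3.46 and 2.97 in the other controls and 3.80, 3.82 and 3.87 in DeltaHepKlf6 1 to 3, so DeltaHepKlf6 was higher by 0.62 ± 0.20 (SE), and the 95% confidence interval ran from 0.10 to 1.13 (limma, unadjusted p = 0.0266, adjusted p = 0.991). For Cpb1 the difference was 0.16 ± 0.28 (SE), with an interval of -0.55 to 0.87, for Ctrb1 0.25 ± 0.17 and for Rnase1 -0.23 ± 0.17. Dmbt1 differed by 1.57 with an interval of -1.87 to 5.01, carried by DeltaHepKlf6 2. None of these passed the adjusted test.

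DeltaHepKlf6 lay above Control 1 and 2 without overlap in 8 of the 25 pancreas-list members, or 32.0%. It did so in 672 of 14996 one-gene probe sets, in 6.21% of all probe sets and in 9.38% of the 800 olfactory and vomeronasal sets. DeltaHepKlf6 lay below Control 1 and 2 in 1 of the 25, Rnase1, against 1574 of 14996 one-gene probe sets and 9.24% of all probe sets. The 8 were Prss2, Cela3b, Sycn, Cuzd1, Ctrb1, Tmed6, Pnliprp2 and 2210010C04Rik, with differences from 0.13 to 0.62. Of these, Sycn lay above the guide to dim signal in all 5 arrays, and members that share an array are not independent. Among the 5 lower arrays DeltaHepKlf6 2 was the highest in 13 of the 25 members, Control 1 in 7, DeltaHepKlf6 3 in 3, DeltaHepKlf6 1 in 2 and Control 2 in 0. The median range over these 5 arrays was 0.52 in the 25 members and 0.52 over all one-gene probe sets.

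**Figure D4:**
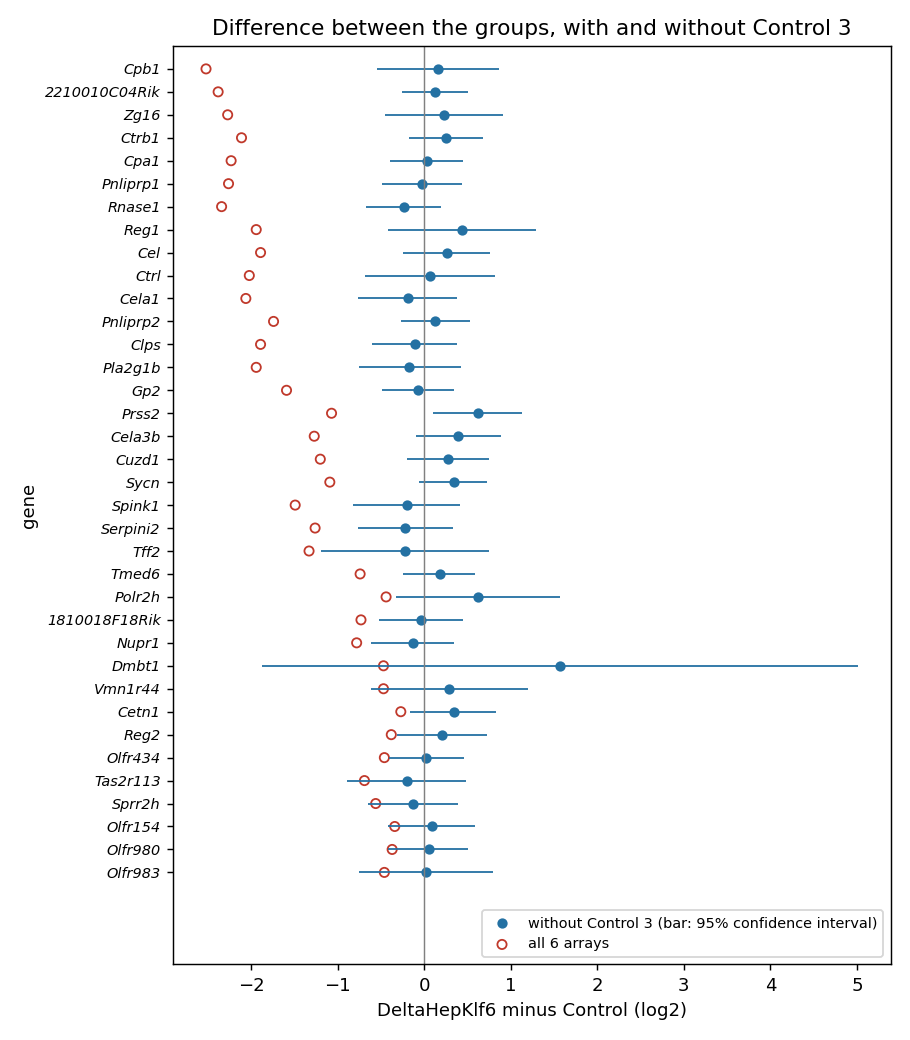
DeltaHepKlf6 minus Control (log2) for each member, with all 6 arrays as open red circles and without Control 3 as blue points with their 95% confidence interval. For Cpb1 the value moves from -2.52 to 0.16, and without Control 3 the interval of 35 of the 36 members spans 0.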

How the data were processed

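Total RNA from 6 livers was hybridised to Affymetrix mouse exon arrays, 1 array per mouse, per the labels' protocols. The deposited values are gene-level log2 signals from RMA, a method that corrects background, quantile-normalizes and summarises probes, in Affymetrix Expression Console, with limma also named, per the submitters' processing notes; versions and the genome build behind the annotation are not given in the sources used here. The table holds 23332 probe sets, with array medians of 5.49 to 5.55, and no pair of arrays was identical. Gene names came from the platform annotation: 14996 probe sets named 1 gene, 1019 several and 7317 none. RefSeq (GRCm38.p6) matched 14941 of the first kind by gene ID.

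Values were used as deposited. Limma 3.58.1 in R 4.3.3 (lmFit, eBayes, Benjamini-Hochberg over all 23332 probe sets, called at an adjusted p under 0.05) compared the groups without Control 3, and with all 6 arrays as a description. It was tested on simulated data. The labels name separate mice, so p-values rest on the spread between these mice, which limma moderates with the spread of all probe sets. Having only Control 1 and 2 against 3 DeltaHepKlf6 arrays in the main test limits its precision. The members and the gene lists were chosen with earlier results of these data known. Named genes are up to 12 members per class by excess, 3 probe sets on each side of the threshold, all acinar transcription factors, and, by excess, up to 6 non-members per pancreas list and 3 genes per other list. Vamp8, Hspa5, Gcg, Sst, Tff3 and Alb fall outside this rule and were chosen after their values were seen. Alternatives were thresholds of 0.5 and 2, the mean of the other arrays, quantile normalization, equal medians, a filter on dim probe sets, an intensity trend with robust variance, the replicate number as a block and leaving out each array. Whether equal replicate numbers pair mice was checked from the correlation of their deviations, which was -0.133, -0.167 and 0.21, so the numbers were not taken as pairs.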

Additional observations from a re-analysis of the deposited data

Results flagged for a closer look

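Outside the one-gene probe sets, signal that stood apart in Control 3 was also present. Of 7317 probe sets with no gene name, 62 exceeded the highest other array by more than 1, or 0.85%, 3 by more than 2 and 1 by more than 3. The largest read 12.02 in Control 3 and 4.10 to 4.87 in the 5 other arrays. A probe set with an excess of 1.96 read only 3.62 in Control 3, below the guide to dim signal. Outside the one-gene probe sets no such count was made for the other arrays, so whether these counts are high is not known. Of 1019 probe sets that name several genes, 6 exceeded the highest other array by more than 1, or 0.59%, and 4 of these 6 include a gene of the digestive enzyme list. Of the 6, 4 name only kallikrein genes, and 2 of these count as digestive through Klk1 alone. The largest read 11.24 in Control 3 and 5.45 to 5.90 elsewhere. Both were singled out because the rule for members left out probe sets that do not name exactly 1 gene; the limma fits did include them.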

How the results depend on the processing

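The count of 14 digestive enzyme members fell to 7 without the dimmest 50% of probe sets, an alternative added for this count after seeing the data, and was 14 under every other setting run. For this count and that of all members, the filter ranked probe sets by their mean over all 6 arrays. The height of Control 3 therefore let some members through. The count of 36 members became 80 with a threshold of 0.5, 74 when Control 3 was set against the mean of the other 5 arrays, 11 without the dimmest 50% of probe sets, 24 with a threshold of 2 and 35 after quantile normalization, where all but 1 of the 36 stayed over 1. Leaving out each of the other 5 arrays, an alternative chosen after seeing the data, gave 37 to 42 and held all 36. The count of called members and of called probe sets was 0 under every setting. The median member difference without Control 3 was 0.05 after quantile normalization, 0.09 with equal medians and 0.07 to 0.11 when another array was also left out. It was -0.02 without the dimmest 50%, ranked here without Control 3, which left 6 members. With all 6 arrays it was -1.27, and leaving out 1 array gave -2.04 to 0.08, the latter without Control 3. The replicate number as a block gave a median of 0.11 without Control 3 and -1.27 with all 6, with 0 members called; the numbers are not taken as pairs. With 2 controls left, the main test has little precision, and a dim probe set has little room to show a difference.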

Other observations

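Of the genes next to each other in the RefSeq order, Reg2 and Reg1 were both members, and Dmbt1 and Cuzd1 were members with 3 genes between them.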
